A study of Mus musculus with 8 samples.

Results

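Cytosolic ribosomal proteins form the protein part of the ribosome that translates nuclear-encoded mRNA. The large 60S subunit joins amino acids and carries the acidic stalk that recruits the GTPase translation factors, and the small 40S subunit binds and decodes the mRNA. Mammalian cells need the proteins of both subunits in matched amounts, and many of their mRNAs start with a run of pyrimidines, the 5′ terminal oligopyrimidine (TOP) tract, through which the kinase mTOR and the RNA-binding protein LARP1 control their translation. Genes were taken from the deposited table by symbol, namely those that begin with Rpl or Rps followed by a digit (or Rplp for the stalk proteins), without pseudogene symbols and without the ribosomal S6 kinases. This rule took 86 of the 22274 genes of the table, 52 of them with symbols of the 60S and 32 with symbols of the 40S subunit. The other 2, Rps19bp1 and Rps23rg1, are not ribosomal proteins: Rps19bp1 encodes a nucleolar binding partner of RPS19, and Rps23rg1 is a retrogene.

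RNA was sequenced from RFB, a line of mouse kidney given as fibroblast, in 8 libraries that all had TGF-β. In 4 of them the labels add ad-CRE, an adenovirus for Cre, which cuts out DNA flanked by loxP sites, and in the other 4 ad-GFP, the control virus for green fluorescent protein. The series text names Suv39h1, a histone H3 lysine 9 methyltransferase, as the targeted gene, while the labels describe no floxed allele. No label ties replicates to separate cultures, and p-values therefore rest on a spread among libraries that may be only technical.

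Total counts were 17572152 to 22297598 per ad-CRE library and 15998257 to 20920828 per ad-GFP library. Suv39h1 had 32.3, 32.9, 33.4 and 31.5 CPM (counts relative to library size, with TMM factors) in ad-CRE replicates 1 to 4, against 37.1, 43.6, 44.1 and 41.3 CPM in ad-GFP replicates 1 to 4. It fell by 0.35 on the log2 scale (SE 0.053, edgeR adjusted p = 8.65e-07). Smarca4, which encodes the remodelling ATPase BRG1, had 29.9 to 37.3 CPM in ad-CRE and 276 to 299 CPM in ad-GFP libraries and fell by 3.07 on the log2 scale (edgeR adjusted p = 3.82e-31). Genes of the mitochondrial chromosome took 7.20% to 7.42% of counts in ad-CRE and 6.46% to 6.60% in ad-GFP libraries. The summed level of 12 fibroblast markers was 25487 to 26848 CPM in ad-CRE and 21012 to 22388 CPM in ad-GFP libraries, most of it Fn1, while 9 of the 11 tested were lower in ad-CRE and 2 higher. That of 11 tubular epithelial markers was 4840 to 5006 CPM in ad-CRE and 2172 to 2394 CPM in ad-GFP libraries, with 8 of the 10 tested higher and 2 lower, so epithelial transcripts were present in a line given as fibroblast. Summed endothelial markers had 58.9 to 66.5 CPM in ad-CRE and 129 to 143 CPM in ad-GFP, and summed leukocyte markers 49.3 to 52.4 CPM in ad-CRE and 72.4 to 87.9 CPM in ad-GFP, with Cd3e at 0 counts throughout. The part of these differences in the results on ribosomal proteins was not tested.

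Nearly all ribosomal protein genes were highly expressed in both groups. On the deposited FPKM scale, which divides by transcript length, 71 of the 80 ribosomal protein genes with enough reads to test exceeded 100 FPKM in both groups, with a median level of 308 FPKM in ad-CRE and 286 FPKM in ad-GFP. The order was led by Rps2, a 40S protein, at 1007 ± 23.5 FPKM in ad-CRE and 1243 ± 38.2 FPKM in ad-GFP (mean ± SD, n = 4 each). Rplp0, the core of the 60S stalk, came second with 840 ± 20.1 FPKM in ad-CRE and 794 ± 16.3 FPKM in ad-GFP. Rps24, of the 40S subunit, came next with 730 ± 20.1 FPKM in ad-CRE and 681 ± 26.8 FPKM in ad-GFP. These 3 held the same ranks in both groups. The lowest of the 80 was Rps20, another 40S gene, at 28.2 ± 0.89 FPKM in ad-CRE and 30.1 ± 1.74 FPKM in ad-GFP. The length implied by the count and the FPKM of Rps20 was 3706 bases, the longest among the tested members, against a median of 719 bases. In CPM, which does not divide by length, Rps20 was not the lowest. It had 106 CPM in ad-CRE and 111 CPM in ad-GFP, against 23.4 CPM in ad-CRE and 20.5 CPM in ad-GFP for Rps28.

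The remaining 5 members were close to 0. Rpl10l, a retrogene of Rpl10 active in the testis, had no read in any library, which allows up to 0.037 CPM in ad-CRE and 0.0408 CPM in ad-GFP (3 counts over the libraries of a group, for counting error only). Rpl39l, another testis form, had 0 reads in ad-CRE and 1 read in ad-GFP, and Rpl3l, known from striated muscle, had 3 reads in ad-CRE and 4 in ad-GFP. Rps27rt had 8 reads in ad-CRE and 7 in ad-GFP, and Rps23rg1 had 6 in ad-CRE and 8 in ad-GFP. These 5 did not pass the filter on low counts and entered no test.

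As a family, ribosomal protein transcripts took a slightly larger part of the ad-CRE libraries. All members together held 2.18%, 2.16%, 2.20% and 2.13% of counts in ad-CRE replicates 1 to 4, against 2.04%, 2.13%, 2.05% and 2.04% in ad-GFP replicates 1 to 4. The groups did not overlap, but ad-CRE replicate 4 and ad-GFP replicate 2 nearly met. The means were 2.17% ± 0.0277 in ad-CRE and 2.06% ± 0.0437 in ad-GFP (SD, n = 4 each), a difference of 0.104 percentage points. Without ad-GFP replicate 2 the difference was 0.125 percentage points. The 60S members gave 1.36% to 1.40% of counts in ad-CRE and 1.29% to 1.34% in ad-GFP libraries, with no overlap. The 40S members gave 0.769% to 0.798% in ad-CRE and 0.752% to 0.792% in ad-GFP libraries, so the groups overlapped, with ad-GFP replicate 2 above 3 of the ad-CRE libraries. In bulk RNA, more cells of a type and more RNA of a gene per cell cannot be told apart.

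**Figure D1:**
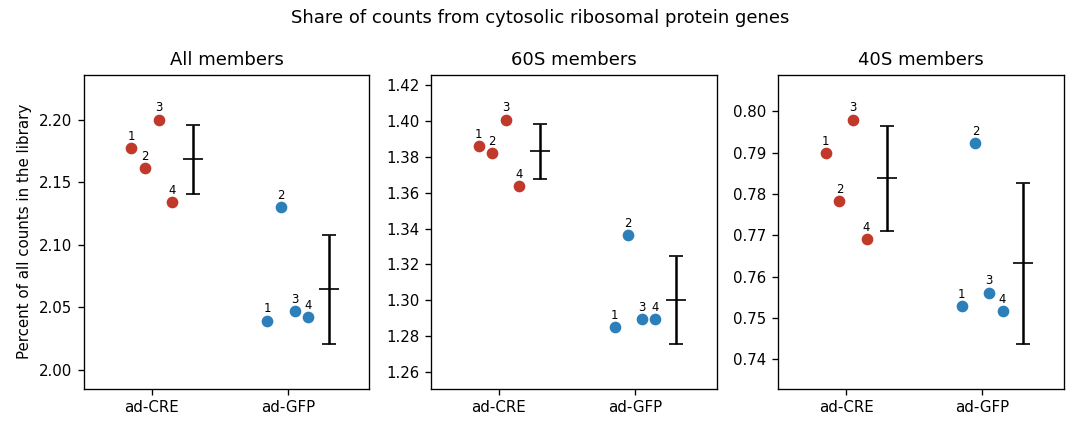
Percent of all counts from all members, the 60S members and the 40S members (y axes, which do not start at 0) in each of the 4 ad-CRE and 4 ad-GFP libraries; points are libraries with their replicate numbers, and bars are means ± SD. For all members the ad-CRE libraries sit between 2.13% and 2.20%, and ad-GFP replicate 2, at 2.13%, stands above the other ad-GFP libraries.

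Most members changed by little, and mostly upwards. With edgeR's quasi-likelihood test and Benjamini-Hochberg adjustment over all 13702 genes tested, 54 of 81 tested members were higher in ad-CRE (66.7%, against 36.8% of all genes tested), 5 were lower (6.17%, against 36.3% of all genes) and 22 did not pass an adjusted p of 0.05. The share called in either direction, 72.8% for members, was near the 73.1% of all genes, and is no result about the members. Groups did not overlap in CPM for 48 members (59.3%, against 66.2% of all genes). Of the 81 tested members, 45 had no overlap and were higher in ad-CRE, against 4577 of the 13702 genes tested (33.4%). The median log2 fold change over tested members was 0.11, a 1.08-fold higher level, and over all genes tested it was 3.87e-05. The quartiles were 0.046 and 0.19 for members, and −0.35 and 0.30 for all genes. No member reached a log2 fold change of 0.5 in size, which 34.7% of all genes did. A size of 0.25 was reached by 12 of the 81 members, 11 of them higher in ad-CRE, and by 58.5% of all genes.

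**Figure D2:**
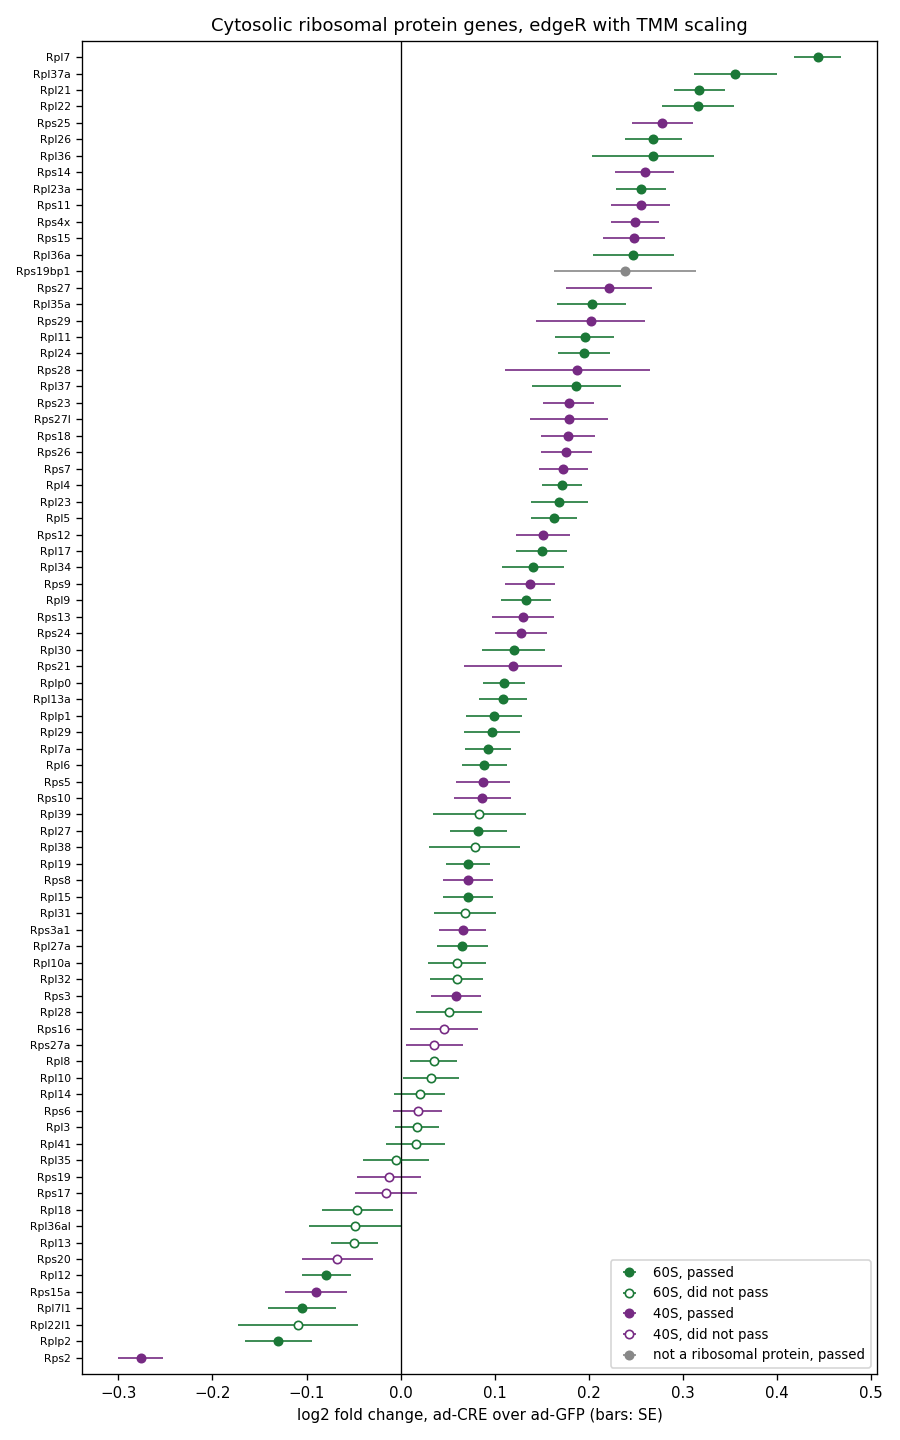
log2 fold change of 80 of the 81 tested members, ad-CRE over ad-GFP (x axis; bars are the SE), in order of size; colours mark the subunit, and filled points passed an adjusted p of 0.05. Most points lie between 0 and 0.3, with Rpl7 at 0.44 at the top and Rps2 at −0.28 at the bottom.

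The largest rise was that of Rpl7, a 60S protein (ENSMUSG00000043716, GRCm38 chromosome 1, 16101295 to 16104662, minus strand, protein-coding). It had 712, 694, 710 and 703 CPM in ad-CRE replicates 1 to 4, against 505, 542, 504 and 523 CPM in ad-GFP replicates 1 to 4. The groups were far apart compared with the spread within each, 705 ± 8.39 CPM in ad-CRE and 518 ± 17.9 CPM in ad-GFP (SD, n = 4 each). The log2 fold change was 0.44 (SE 0.025, edgeR adjusted p = 3.79e-16). Rpl7 alone made up 13.0% of the summed CPM difference of the members.

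Other 60S genes followed. Rpl37a, which encodes a small zinc-binding 60S protein, had 75.9, 75.7, 74.2 and 67.7 CPM in ad-CRE replicates 1 to 4, against 55.7, 60.8, 54.9 and 58.3 CPM in ad-GFP replicates 1 to 4. It rose by 0.36 on the log2 scale (SE 0.044, edgeR adjusted p = 1.86e-08), and its lowest ad-CRE library was replicate 4. Rpl21 had 336, 337, 333 and 352 CPM in ad-CRE and 266, 281, 276 and 266 CPM in ad-GFP replicates 1 to 4, up by 0.32 on the log2 scale (SE 0.027, edgeR adjusted p = 9.39e-12). Neither gene had overlapping groups.

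Within the 40S subunit the largest rise was that of Rps25, a protein needed for initiation at some viral internal ribosome entry sites. It had 197, 183, 190 and 187 CPM in ad-CRE replicates 1 to 4, against 147, 161, 159 and 158 CPM in ad-GFP replicates 1 to 4, with no overlap. Its log2 fold change was 0.28 (SE 0.032, edgeR adjusted p = 6.14e-09). Among the 31 tested 40S members, whose median was 0.13, 23 rose (74.2%), 2 fell (6.45%) and 6 did not pass. Among the 49 tested 60S members, whose median was 0.093, 30 rose (61.2%), 3 fell (6.12%) and 16 did not pass. Of all genes tested, 36.8% rose and 36.3% fell.

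The most abundant member moved the other way. Rps2 (ENSMUSG00000044533, chromosome 17, 24718116 to 24721929, plus strand, protein-coding), a 40S protein that arginine methyltransferase PRMT3 modifies, had 1028, 1007, 1043 and 991 CPM in ad-CRE replicates 1 to 4, against 1238, 1280, 1196 and 1214 CPM in ad-GFP replicates 1 to 4. All 4 ad-CRE libraries lay below all 4 ad-GFP libraries. The log2 fold change was −0.28 (SE 0.024, edgeR adjusted p = 8.51e-12), and Rps2 went against the summed rise by 215 CPM, with 1017 ± 23.1 CPM in ad-CRE and 1232 ± 36.5 CPM in ad-GFP (SD, n = 4 each). Its part of the members' reads was 4.59% to 4.69% in ad-CRE and 5.90% to 6.13% in ad-GFP libraries.

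The balance of the subunit totals changed with Rps2 left out. The ratio of 60S to 40S counts was 1.75 to 1.78 in ad-CRE and 1.69 to 1.72 in ad-GFP libraries, with no overlap. Without Rps2 it was 2.01 to 2.04 in ad-CRE and 2.02 to 2.05 in ad-GFP libraries, and the groups overlapped. The summed level of the 40S members without Rps2 was 6787 to 7016 CPM in ad-CRE and 6215 to 6557 CPM in ad-GFP libraries, which then did not overlap. The choice of Rps2 for this comparison was made after its values were seen.

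The other 4 members that fell did so by less. Rplp2, a stalk protein, had 104, 97.9, 107 and 102 CPM in ad-CRE replicates 1 to 4, against 110, 118, 108 and 114 CPM in ad-GFP replicates 1 to 4, down in ad-CRE with a log2 value of −0.13 (SE 0.036, edgeR adjusted p = 0.00173). Rpl12, which binds at the base of the stalk, had 386 to 397 CPM in ad-CRE and 400.3 to 427 CPM in ad-GFP libraries (−0.08, SE 0.026, edgeR adjusted p = 0.00718). The groups of these 2 genes did not overlap. Rps15a had 156 to 171 CPM in ad-CRE and 168 to 177 CPM in ad-GFP libraries (−0.09, SE 0.033, edgeR adjusted p = 0.0154), and its groups overlapped. The fifth, Rpl7l1, is described with the paralogues.

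The stalk genes did not move together. Rplp0, the anchor of the stalk, had 1139, 1159, 1169 and 1110 CPM in ad-CRE replicates 1 to 4, against 1066, 1087, 1040 and 1048 CPM in ad-GFP replicates 1 to 4. It rose by 0.11 on the log2 scale (SE 0.022, edgeR adjusted p = 6.82e-05), with no overlap. Rplp1, the partner of Rplp2 in the stalk, averaged 260 ± 8.24 CPM in ad-CRE and 243 ± 8.98 CPM in ad-GFP (SD, n = 4 each) and rose by 0.099 (SE 0.030, edgeR adjusted p = 0.00382), with overlapping groups. On the FPKM scales Rplp1 did not pass (edgeR is replaced there by limma-trend, adjusted p = 0.0653 with a pseudocount of 1).

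Rpl5 and Rpl11, which with 5S rRNA form a particle that can bind and inhibit MDM2 and so stabilise p53, both rose. Rpl5 had 458, 442, 449 and 455 CPM in ad-CRE replicates 1 to 4, against 395, 408, 399 and 410 CPM in ad-GFP replicates 1 to 4 (0.16, SE 0.024, edgeR adjusted p = 5.76e-07). Rpl11 had 180 to 194 CPM in ad-CRE and 159 to 173 CPM in ad-GFP libraries (0.20, SE 0.032, edgeR adjusted p = 2.28e-06). Neither gene showed overlap between groups. Rpl4, a large 60S protein of the exit tunnel, had 992 to 1029 CPM in ad-CRE and 894 to 911 CPM in ad-GFP libraries (0.17, SE 0.022, edgeR adjusted p = 2.87e-08). Rps24 rose by 0.13 (SE 0.028, edgeR adjusted p = 0.000144).

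Several members with well-known roles did not pass. Rps6, the substrate of the S6 kinases, had 485, 489, 467 and 498 CPM in ad-CRE replicates 1 to 4, against 473, 494, 486 and 461 CPM in ad-GFP replicates 1 to 4, and the groups lay on top of each other. Its log2 fold change was 0.02 (95% interval −0.033 to 0.069, edgeR adjusted p = 0.539), and its sign turned with scaling by total counts (−0.0092) and on the FPKM scales. Rps19, the gene most often mutated in human Diamond-Blackfan anaemia, had −0.01 (95% interval −0.079 to 0.055), a sign that also turned, to 0.0032 with no filter beyond 1 read. Rpl10 had 0.033 (95% interval −0.026 to 0.091), and its reads may be shared with the row Rpl10-ps3, which stood at a like level. Rps27a, which is made as a fusion with ubiquitin, had 0.036 (−0.023 to 0.095), and Rpl38 had 0.079 (−0.016 to 0.17). Over the 22 members that did not pass, estimates ran from −0.11 to 0.084 and the 95% intervals from −0.23 to 0.18. Rps3, a 40S protein that also has DNA repair roles, was the member nearest to the threshold among those that passed (0.059, edgeR adjusted p = 0.0451). It kept that call in 6 of 20 alternative settings, 8 of which leave out 1 library each.

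The start sites of members whose results differ are shown for the TOP tract, from RefSeq promoter windows on GRCm38.p6. Each line runs 5′ to 3′ from 10 bases before the annotated start base to 19 after it, and capitals mark the unbroken run of C and T bases that covers the start base, where there is one. The first 3 belong to members that fell, the next 4 to members that rose and the last to Rps6, which did not pass.
Rps2 (chr17:24720053-24720082, plus strand): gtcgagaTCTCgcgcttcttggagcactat
Rplp2 (chr7:141447641-141447670, plus strand): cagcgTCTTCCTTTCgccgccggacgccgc
Rps15a (chr7:118116128-118116157, minus strand): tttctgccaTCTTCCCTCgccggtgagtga
Rpl37a (chr1:72711250-72711279, plus strand): ctcgccggTCTaaaaccgcgcatgcgcatt
Rps25 (chr9:44407704-44407733, plus strand): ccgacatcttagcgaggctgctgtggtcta
Rpl35a (chr16:33056472-33056501, plus strand): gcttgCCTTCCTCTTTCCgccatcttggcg
Rps27 (chr3:90213629-90213658, minus strand): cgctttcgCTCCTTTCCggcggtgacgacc
Rps6 (chr4:86857348-86857377, minus strand): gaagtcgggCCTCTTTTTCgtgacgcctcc

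A tract, taken as a C at the annotated start base followed by at least 4 bases that are each C or T, was present in 14 of 66 members with a window (21.2%), against 3.01% of the 27025 genes in the same table. For genes with several windows any match was counted. Both a long tract and its absence occurred on either side: Rplp2 and Rps15a, which fell, start in tracts of 10 and 9 bases, and Rpl35a and Rps27, which rose, in tracts of 13 and 9. For Rpl35a this holds at the annotated start shown, and its other annotated starts have no tract by this definition. Of the 13 tested members with a tract 6 rose and 2 fell (median log2 fold change 0.072), and of the 48 without 34 rose and 3 fell (median 0.13). The shares over all genes tested were 36.8% higher and 36.3% lower. The windows shown for Rps2, Rplp2, Rps15a, Rps25, Rpl35a and Rps6 lie inside the GENCODE genes, downstream of their starts. Those of Rps2, Rps25 and Rplp2 lie farthest in. The annotated start is not always the start used in these cells, so a window without a match says only that the tract is not at that base. In the 300-base windows the motif CCGGAAG, a core of ETS factor sites, was found on either strand in 25 of 66 members (37.9%) and in 9.93% of all genes, AAGATGG, a core of YY1 sites, in 15.2% and 7.28%, and TATAAA in 10.6% and 15.7%. The first 2 motifs can share their bases AAG where they overlap.

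Paralogues were set beside their partners, on the FPKM scale. Rpl22 encodes an RNA-binding 60S protein, which in mice represses expression of its paralogue Rpl22l1. Rpl22 had 165, 154, 172 and 170 FPKM in ad-CRE replicates 1 to 4, against 141, 139, 147 and 138 FPKM in ad-GFP replicates 1 to 4, with no overlap (edgeR on counts, log2 fold change 0.32, SE 0.038, adjusted p = 1.24e-08). Rpl22l1 had 45.2, 45.0, 42.1 and 42.0 FPKM in ad-CRE replicates 1 to 4, against 47.2, 53.1, 41.7 and 50.1 FPKM in ad-GFP replicates 1 to 4, and did not pass (−0.11, 95% interval −0.23 to 0.016, edgeR adjusted p = 0.123). Its lowest library was ad-GFP replicate 3, without which it passed (−0.17, edgeR adjusted p = 0.0158). Rpl22l1 did not pass in 19 of the 20 alternative settings that do not scale to the family. With 1 library left out its log2 fold change ran from −0.17 to −0.057. Rpl22l1 stood at 26.4% ± 2.24 of the Rpl22 level in ad-CRE and 34.0% ± 4.23 in ad-GFP (SD, n = 4 each). These ratios overlapped between groups, at 24.5% to 29.2% in ad-CRE and 28.3% to 38.1% in ad-GFP.

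Rpl7l1 and its partner Rpl7 passed in opposite directions. Rpl7l1 had 45.6, 51.2, 48.7 and 50.3 FPKM in ad-CRE replicates 1 to 4, against 53.6, 60.1, 56.2 and 60.8 FPKM in ad-GFP replicates 1 to 4, and on the count scale fell by 0.10 in log2 units (SE 0.036, edgeR adjusted p = 0.0101). The groups did not overlap in FPKM, but did in CPM, and without ad-GFP replicate 3 the edgeR adjusted p was 0.0502. The level of Rpl7l1 was 8.12% ± 0.496 of that of Rpl7 in ad-CRE and 12.8% ± 0.506 in ad-GFP (SD, n = 4 each). Rps27l, a p53 target gene, rose with its partner Rps27 (0.18, SE 0.041, edgeR adjusted p = 0.000322, and 0.22, SE 0.045, edgeR adjusted p = 7.31e-05), and their ratio was 92.0% ± 2.57 in ad-CRE and 94.8% ± 1.96 in ad-GFP, with overlap. Rpl36al did not pass (−0.048, edgeR adjusted p = 0.381), while Rpl36a, chosen for its place as partner, rose by 0.25 (SE 0.043, edgeR adjusted p = 6.8e-06). Their ratio was 67.2% ± 2.90 in ad-CRE and 82.2% ± 5.14 in ad-GFP (SD, n = 4 each), with no overlap. Rps19bp1, the binding partner of RPS19, rose by 0.24 at a low level, 15.3 ± 1.01 CPM in ad-CRE and 12.9 ± 0.734 CPM in ad-GFP (SD, n = 4 each; edgeR adjusted p = 0.00564).

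**Figure D3:**
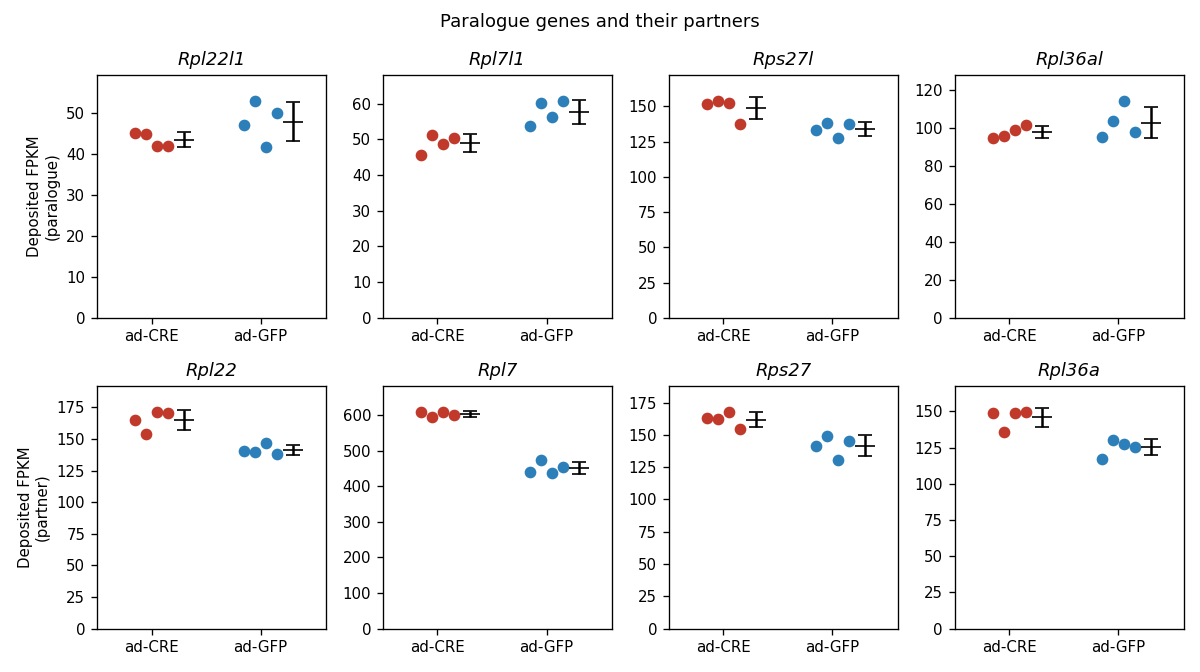
Deposited FPKM of 4 paralogues (upper row) and their partners (lower row) in the 4 ad-CRE and 4 ad-GFP libraries; points are libraries, bars are means ± SD, and the y axes start at 0. Rpl7 and Rpl22 lie higher in every ad-CRE library, whereas Rpl7l1 lies lower and Rpl22l1 overlaps between the groups.

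Since the rises were small, they were set under several ways of scaling the libraries. TMM factors were 0.989 to 0.992 in ad-CRE and 1.01 in ad-GFP libraries, so total counts alone lower all ad-CRE levels slightly. With total counts only, 43 members rose and 7 fell (median 0.081), where 34.6% of all genes rose, 38.5% fell and the median of all genes was −0.027. With DESeq2 size factors 53 rose and 5 fell (median 0.10), where 36.4% of all genes rose and 36.7% fell. Upper quartile factors gave 54 higher and 5 lower (median 0.11), where 37.1% of all genes rose and 36.1% fell. TMM computed without the members and the mitochondrial genes gave 53 higher and 5 lower (median 0.11), where 36.7% of all genes rose and 36.5% fell. A different question is which members moved relative to the family. With libraries scaled to the members' own reads, 23 were higher and 17 lower (median 0.01), while 28.5% of all genes were higher and 44.7% lower (median −0.098). Relative to the family, Rpl7 (0.35), Rpl37a (0.26), Rpl21 (0.22) and Rpl22 (0.22) were still the highest, and Rps2 (−0.37), Rplp2 (−0.23), Rpl22l1 (−0.21) and Rpl7l1 (−0.20) the lowest. Rps6 was lower on that scale (−0.079, edgeR adjusted p = 0.0226).

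**Figure D4:**
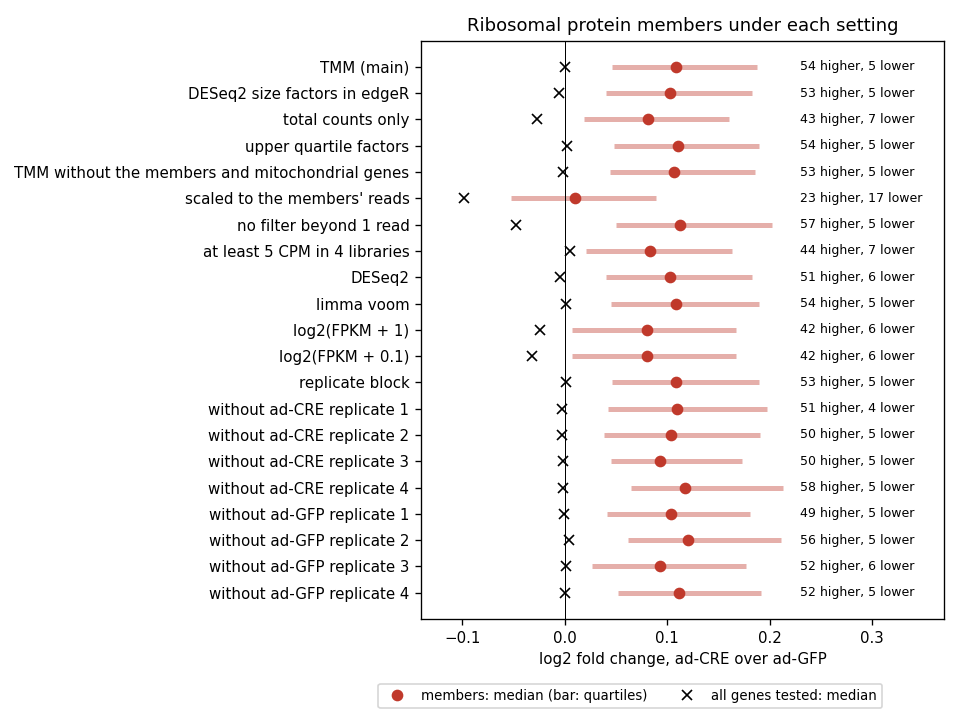
Median log2 fold change of the tested members (red points; bars run over the middle quartiles) and of all genes tested (crosses) under each setting, ad-CRE over ad-GFP, with the numbers of members called higher and lower at right. The members' median stays between 0.08 and 0.12 except when libraries are scaled to the members' own reads, where it is 0.01.

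Of the 54 members that rose, 41 were called higher in every one of the 20 settings that do not scale to the family, and 46 in all 8 of those that left out 1 library. Of the 5 that fell, 3 were called lower in all 20 settings. No member was called in the opposite direction in any of them. The family varied little within groups, with a median coefficient of variation of 2.75% in ad-CRE and 3.34% in ad-GFP. Libraries differed in a shared way: ad-CRE replicate 4 was the lowest of its group in 42 of 81 members (median deviation −0.026 on the log2 scale), and ad-GFP replicate 2 the highest of its group in 60 members (median deviation 0.047). Without ad-CRE replicate 4, 58 members rose and 5 fell, where 36.1% of all genes rose and 35.8% fell. Without ad-GFP replicate 2, 56 rose and 5 fell, where 35.7% of all genes rose and 35.1% fell.

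The authors' deposited table, with its own unnamed test, gave an FDR under 0.05 for 52 members with a log2 ratio above 0 and 5 below 0. In the authors' deposited table the shares over the same 13702 genes were 34.2% above and 33.8% below. The sign of the log2 ratio in the authors' deposited table was that of the edgeR estimate in 75 of 81 members. In the authors' deposited table Rpl7 had 0.42 and Rps2 −0.30.

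Ribosomal proteins with other symbols were mixed. Rack1, a scaffold on the 40S head, had 647 ± 19.2 CPM in ad-CRE and 584 ± 10.2 CPM in ad-GFP (SD, n = 4 each) and rose by 0.15 (SE 0.025, edgeR adjusted p = 3.97e-06). Fau, a ubiquitin-like fusion with a 40S protein, fell to 162 ± 3.09 CPM in ad-CRE, against 174 ± 1.51 CPM in ad-GFP (−0.10, SE 0.028, edgeR adjusted p = 0.00196). Rpsa, the 40S laminin receptor protein, did not pass (−0.025, 95% interval −0.07 to 0.02). The mitochondrial ribosomal proteins, the family most like this one, had 35 of 78 higher (44.9%, against 36.8% of all genes), 16 lower (20.5%, against 36.3%) and 27 that did not pass (median 0.099), spread more widely from −0.43 to 0.88. Their largest rises by p-value were Mrpl33 (0.88), Mrpl23 (0.88) and Mrps5 (0.46).

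Genes that build ribosomes were called in both directions. The 60 ribosome biogenesis genes, with a median of −0.048, held 13 that rose (21.7%, against 36.8% of all genes), 24 that fell (40%, near the 36.3% of all genes) and 23 that did not pass, with Nolc1 (−0.62), Gnl3 (−0.58) and Tsr1 (−0.51), a nucleolar phosphoprotein, a nucleolar GTPase and a 40S maturation factor, the smallest in p. Of 18 listed symbols of RNA polymerase I and its factors, which make ribosomal RNA, 15 were found. All 15 were tested and had a median of −0.10. Of these, 2 rose (13.3%, against 36.8% of all genes), 7 fell (46.7%, against 36.3%) and 6 did not pass. The selectivity factor subunits Taf1d and Taf1a had −0.45 and −0.46, and the initiation factor Rrn3 had −0.21. No test of the difference between these lists and the ribosomal proteins was made.

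Translation factors moved in both directions. Of 35 initiation factors 9 rose (25.7%, against 36.8% of all genes), 14 fell (40%, near the 36.3% of all genes) and 12 did not pass (median −0.017), with Eif3c, a core eIF3 subunit, at −0.54, Eif2b1 at −0.64 and Eif3i at 0.61. Of 11 elongation and termination factors 4 rose, 4 fell (36.4% each, near all genes) and 3 did not pass. Eef1a1, the factor that brings aminoacyl-tRNA, had 6807 CPM in ad-CRE and 5979 CPM in ad-GFP (0.19, SE 0.017, edgeR adjusted p = 5.53e-11), its partner Eef1b2 had 0.19, and the release factor Etf1 −0.25. The list of genes other than members whose mRNAs are known to carry a TOP tract had 19 tested genes (median 0.049). Of these, 9 rose (47.4%, against 36.8% of all genes), 5 fell (26.3%, against 36.3%) and 5 did not pass. Tpt1 had 0.32, Nap1l1 −0.56 and Vim, the intermediate filament vimentin and also one of the fibroblast markers, −1.22. Most genes of that list also stand in the other lists (Rack1, Npm1, and several elongation and initiation factors), so it is not separate from them.

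The regulators of ribosomal protein translation included some of the larger changes. Their median was 0.00036, and of 22 genes 9 rose (40.9%), 7 fell (31.8%) and 6 did not pass, shares near those of all genes. Deptor, an inhibitor of mTOR, rose to 25.1 CPM in ad-CRE, against 11.4 CPM in ad-GFP (1.14, SE 0.067, edgeR adjusted p = 9.8e-16), and Ddit4, which restrains mTOR complex 1 under stress, rose by 0.55. The kinase gene Rps6ka2 fell by 1.33 on the log2 scale. Outside the naming rule, Mtor itself had −0.0046 (edgeR adjusted p = 0.911), Larp1 −0.20 and Myc, a transcription factor that drives ribosome production, 0.38. Mycn had the largest rise of the list, 1.38, with 15.3 CPM in ad-CRE and 5.82 CPM in ad-GFP. Among 15 genes of ribosome rescue and collision response 5 rose (33.3%), 6 fell (40%, both near all genes) and 4 did not pass (median −0.027), with Ascc3, a helicase that splits collided ribosomes, at −1.09, Gcn1, a sensor of stalled ribosomes, at 0.40, and Edf1 at 0.47.

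**Figure D5:**
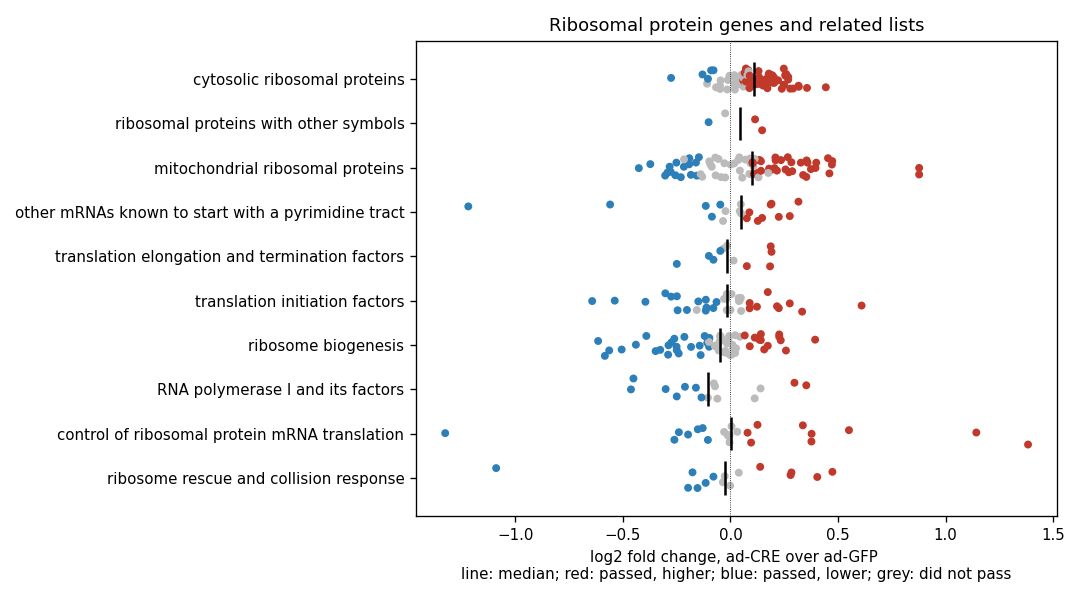
log2 fold change of each tested gene, ad-CRE over ad-GFP (x axis), for the cytosolic ribosomal proteins (top) and 9 related lists; each point is a gene, red passed higher, blue passed lower and grey did not pass, and black lines are medians. The cytosolic ribosomal proteins lie in a narrow band with a median of 0.11, while ribosome biogenesis genes (−0.048) and RNA polymerase I genes (−0.10) have medians below 0.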

How the data were processed

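RNA was sequenced in 8 libraries, 4 ad-CRE and 4 ad-GFP, prepared with a SMARTer mRNA-seq kit, per the labels' protocols. GRCm38 and mm10 are the builds in the submitters' processing notes. The aligner, counter and strand setting were not given in the sources used here. The authors deposited 1 table that holds, per the file headers, read counts and FPKM values per library, the authors' mean FPKM, a log2 ratio and a p-value with FDR. In 38 genes every deposited count was 0 while an FPKM was above 0, so counts may be rounded estimates. GENCODE M21 (GRCm38) gave coordinates, with 22219 gene IDs found and all 86 members among them, and 291 genes there carry names of ribosomal protein pseudogenes, so reads may be shared with near-identical copies and single values are uncertain to that extent.

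Counts were fitted across the whole table in R 4.3.3 with edgeR 4.0.16 (filterByExpr, TMM, quasi-likelihood test, group as the only term), with Benjamini-Hochberg adjustment across the 13702 genes that passed the filter and a threshold of 0.05. The SE is the log2 fold change divided by the square root of F, and intervals are 95% from it. Library totals and a common biological coefficient of variation of 0.032 set the precision. Alternatives used limma 3.58.1, DESeq2 1.42.0, limma-trend with a pseudocount of 1 or 0.1 added to FPKM before log2, other scalings and filters, a stricter threshold of 0.01, the replicate number as a block, and fits without each library in turn. The edgeR fit was also run on simulated data in which only a small part of the genes changed. In the real data 73.1% of all genes were called, so that run cannot check the scaling used here. Pairs of replicates gave chi-square values of 1.71 to 3.24 for each degree of freedom, more than counting noise, and all were kept. Named members are the 6 largest rises and falls with non-overlapping groups and a mean log2 CPM of at least 2 (only 3 falls qualified), the 4 highest in FPKM, members fixed by role and tested paralogues, and in each list the 3 genes with the smallest p. Some genes under this rule are not reported here. Other genes named were chosen after their values were seen. The members and lists were chosen with earlier results of these data known.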

Additional observations from a re-analysis of the deposited data

Results flagged for a closer look

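The members' percent of counts had 1 ad-GFP library far from the other 3: replicate 2 stood at 2.13%, and its gap to the nearest was 0.916 of the range of the group. In Rps27l the ad-CRE replicate 4 library was low, at 69.7 CPM against 76.7 to 77.7 CPM in the other 3, with a gap of 0.869 of the range. The critical value for 4 samples was exceeded in 2 of 56 groups examined, and chance flags about 1 in 20 groups. Among the 7 rows with pseudogene symbols, which no comparison used, Rpl10-ps3 held a high signal that was above the ad-GFP level in ad-CRE: 303 ± 7.53 CPM in ad-CRE and 272 ± 6.9 CPM in ad-GFP (SD, n = 4 each), a log2 fold change of 0.15 (edgeR adjusted p = 9.29e-06). Rpl10 itself had 296 ± 10.2 CPM in ad-CRE and 290 ± 11.8 CPM in ad-GFP. The other 6 pseudogene rows had 0 to 8 reads in a group.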

How the results depend on the processing

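Without single libraries the count of members called higher ran from 49 to 58 and lower from 4 to 6, the median from 0.093 to 0.12 and the difference in percent of counts from 0.0931 to 0.125 points. Over all genes tested in these fits, 35.4% to 36.1% were called higher and 35.1% to 35.8% lower. Headline values moved in 3 settings. With libraries scaled to the members' reads, 23 members were higher and 17 lower, and the median was 0.0103. On that scale 44 genes of the related lists were higher and 126 lower, against 82 higher and 81 lower with TMM. Over all genes tested, 28.5% were higher and 44.7% lower on that scale, against 36.8% and 36.3% with TMM. By its construction that scale removes the shared change of the family. At an adjusted p of 0.01, 45 members rose and 3 fell, where 33.2% of all genes rose and 32.5% fell. As a share of summed FPKM the members' difference was 0.337 points, on another denominator. A sign turned in 16 of 1197 comparisons of 57 named genes, in genes that did not pass or, for Rps3, only relative to the family. Relative to the family these were Rpl10 (−0.066), Rpl38 (−0.0201), Rps27a (−0.062), Rps3 (−0.039) and Rps6 (−0.079), which passed on that scale. Rps6 also turned with total counts only (−0.0092), at least 5 CPM in 4 libraries (−0.0066), log2(FPKM + 1) (−0.0084) and log2(FPKM + 0.1) (−0.0084), and Rps27a on these 2 FPKM scales (−0.0024 and −0.0024). Rps19 turned to 0.0032 with no filter beyond 1 read, and ran from −0.034 to 0.012 when 1 library was left out, and Rpl36al from −0.085 to 0.0072. The cause was not tested. The labels do not say whether replicate numbers pair the libraries. Correlations of same-numbered deviations were 0.025, −0.041, −0.063 and 0.066, which cannot exclude a pairing with weak shared effects. With the replicate block 53 members rose and 5 fell, where 36.6% of all genes rose and 36.1% fell. The largest SE among tested members were those of Rps28 (0.077, at 23.4 CPM in ad-CRE and 20.5 CPM in ad-GFP) and Rps19bp1 (0.075, at 15.3 CPM in ad-CRE and 12.9 CPM in ad-GFP); the part of depth in them was not tested.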

Other observations

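The fold changes varied with transcript length among the members. The 40 shorter members, with implied lengths of 345 to 717 bases, had 28 that rose and 1 that fell (median log2 fold change 0.16), and the 41 longer ones, of 719 to 3706 bases, had 26 that rose and 4 that fell (median 0.072). Across the 81 tested members Spearman's rho of the log2 fold change with length was −0.30 and with GC content −0.11. Members share libraries and are not independent, so these are descriptions. Across all genes with a length rho was −0.01, and the quartile of shortest genes, up to 1730 bases, which held 79 of the members, had a median log2 fold change of 0.035 with 36.3% of its genes higher and 30.5% lower. The quartile of genes with the highest mean CPM, which held 68 members, had a median of 0.025 with 43.3% higher and 37.8% lower. The part of length or abundance in the members' values was not tested.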
